A study of Drosophila melanogaster with 12 samples.

Results

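The comparison described here is that of the warm and the cold part of 1 thermocycle day in *Drosophila* heads, 25 °C against 18 °C. Adult *y w* flies, a laboratory strain that carries body- and eye-colour mutations and has a working circadian clock, were kept in constant darkness and entrained for at least 4 days to 12 h at 18 °C and 12 h at 25 °C. On the thermocycle day, called CA for cold and ambient, heads were taken in the cryophase (18 °C) at hours 2, 6 and 10 and in the thermophase (25 °C) at hours 14, 18 and 22, with 1 Affymetrix array for each hour. These 6 of the series' 12 arrays are named CA2 to CA22, and the other 6, AA2 to AA22, hold the same hours of the next day, when the flies stayed at 25 °C in darkness. The AA arrays are given beside the CA values as the same hours without a temperature step, in a subjective cryophase (AA2, AA6 and AA10) and a subjective thermophase (AA14, AA18 and AA22). All groups share the genotype, the darkness and the earlier entrainment, and each has 3 arrays.

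All probe sets other than controls were members, provided that at least 7 of their 12 values lay above 2.93 (log2), the 20th percentile of all values. This left 11137 of 13966. The 75 probe sets that just entered, with 7 values above the limit, had means of 2.89 to 5.18 (median 2.95), and the 75 that just missed it, with 6 values, had means of 2.86 to 3.04 (median 2.93). Values are log2 expression, changes are the thermophase mean minus the cryophase mean on that scale, and SE is the standard error of that change in limma. The 3 arrays of a phase were taken at different hours, so their spread holds time of day together with noise. The p-values measure only such spread within groups, pooled over the CA and AA groups, so the AA arrays enter the p-value of a CA change.

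Flies take the temperature of their surroundings, so a step of a few degrees reaches every cell. Protein folding is one of the processes most sensitive to it: Hsp70, Hsp90 and Hsp60 chaperones hold and fold proteins with the help of co-chaperones, and many of their genes are induced by the heat shock factor when cells are strongly heated. A daily temperature cycle also entrains the circadian clock, in which *Clk* and *cyc* drive *per* and *tim*, whose proteins in turn repress them.

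The head markers were present: the photoreceptor arrestins *Arr1* and *Arr2* stood at the 99.6th and 99.9th percentile of probe sets, the neuronal gene *nSyb* at the 86.3rd and *elav* at the 68.3rd. Transcripts of tissues outside the head were present too, and unequally. The mean deviation of 29 gut proteases and lysozymes was 0.41, 0.39 and 0.81 at CA2, CA14 and CA22 and -0.42, -0.45 and -0.31 at CA6, CA10 and CA18, and that of 14 male reproductive tract transcripts was high and low at the same hours (0.31, 0.28 and 0.63 against -0.43, -0.38 and -0.34). Of these 6 arrays, 2 of the 3 thermophase arrays but 1 of the 3 cryophase arrays thus held more of such RNA. On the AA day the gut deviations were -0.29, -0.25 and -0.43 at AA2, AA6 and AA10 and 0.13, 0.11 and 0.31 at AA14, AA18 and AA22. Those of the male transcripts were -0.31, 0.07 and -0.49 against 0.16, 0.03 and 0.47. The cause of these differences was not tested. The controls for RNA integrity varied unequally. The 3' probe set of the *eIF-4a* control exceeded its 5' probe set by 2.44 to 2.74 (log2) at 18 °C and by 1.85, 1.55 and 3.23 at CA14, CA18 and CA22. The same difference for *Gapdh* varied little (2.29 to 2.52) and was highest at CA18, and for actin it ran from 1.20 at CA18 to 1.94 at CA22, so the controls did not share 1 pattern. In whole heads, fewer cells of a type and less RNA per cell cannot be told apart.

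Few transcripts separated the phases beyond the spread of the hours. Of the 11137 probe sets, 1 (0.00898%) passed a Benjamini-Hochberg adjusted p of 0.05 in limma, higher in the thermophase, and 0 (0.0%) were lower. Without adjustment, 167 (1.5%) were higher and 264 (2.37%) lower at a p under 0.05, together 431 where 556.9 would be counted with no difference anywhere. All 3 thermophase arrays lay above all 3 cryophase arrays for 482 probe sets (4.33%) and below them for 513 (4.61%), together 8.93%. An exact permutation test of 3 arrays against 3 cannot give a p below 0.1. Full separation has that p, so a share of 0.1 would be counted with no difference anywhere, above the 8.93% seen. The change was above 0 for 50.2% and below 0 for 49.8%. The median change was 0.00, and 5% of probe sets lay below -0.24 and 5% above 0.21.

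**Figure D1:**
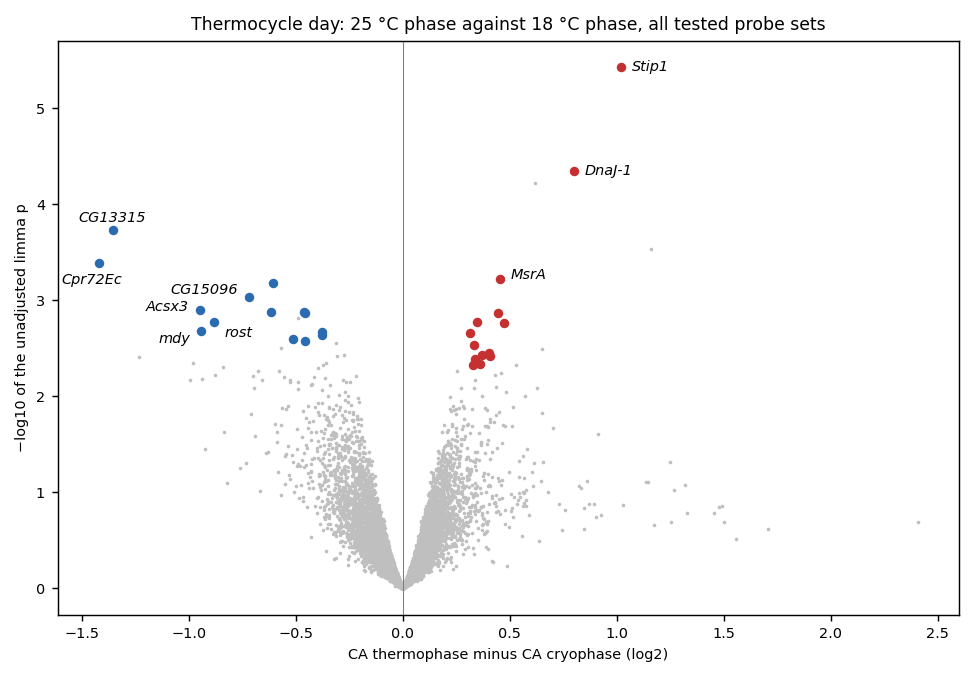
Change from the cryophase to the thermophase (x axis, log2) against −log10 of the unadjusted limma p (y axis) for the 11137 probe sets tested, with 3 arrays a phase. Red and blue points are the 14 higher and 14 lower genes of smallest p whose phases did not overlap, and *Stip1* is the 1 point past an adjusted p of 0.05.

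The size of a change and its test did not go together. Over all 11137 probe sets tested, 409 had CA2, CA14 and CA22, the hours at which the gut and male markers were high, all above CA6, CA10 and CA18. Of the 18 picked as higher by more than 1 on the log2 scale, 15 had this split, and their phases overlapped. *Cyp4g1*, a cytochrome P450 of the oenocytes, which make cuticular hydrocarbons and lie mainly in the abdomen, was one of those and was singled out after its values were seen. It read 9.20, 4.90 and 5.55 in the cryophase and 9.10, 5.17 and 10.50 in the thermophase (change 1.71, SE 1.38, limma adjusted p = 0.995). With a body-marker score as a covariate, the mean of the gut and male deviations, its change was -0.47. The gut protease *Jon65Aiii* had the same split of high and low hours (7.61, 5.92 and 6.03 against 8.18, 6.26 and 8.86). Only 2 of the 18 had phases that did not overlap, *Stip1* and a probe set with no symbol in the annotation used, which read 7.65, 7.49 and 8.48 at 18 °C and 9.32, 8.97 and 8.81 at 25 °C (change 1.16, SE 0.23, limma adjusted p = 0.649). The 3 probe sets lower by more than 1 all had phases that did not overlap.

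The 1 transcript that passed belongs to the protein folding machinery. *Stip1*, the Hsp70-Hsp90 organizing co-chaperone that passes client proteins from the first to the second, read 5.37, 4.90 and 5.30 at CA2, CA6 and CA10 and 6.17, 6.17 and 6.28 at CA14, CA18 and CA22. It was already at its thermophase level at the first hour sampled after the step to 25 °C. It rose by 1.02 (SE 0.13), or 2.03-fold, from 5.19 ± 0.26 to 6.21 ± 0.066 (SD, n = 3 each; limma adjusted p = 0.0412). On the AA day it read 5.58, 5.85 and 5.94 and then 5.81, 5.96 and 5.74, so that the 3 arrays at 18 °C lay below all 9 at 25 °C. The AA change was 0.05 (SE 0.13), and the difference between the days was 0.98 (SE 0.18, limma adjusted p = 0.901). No difference between the days passed adjustment for any probe set (0.0%), and 355 (3.19%) had an unadjusted p under 0.05.

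The call on *Stip1* rested on all the arrays. Leaving out any 1 CA array gave changes of 0.87 to 1.11 with limma adjusted p between 0.0632 and 0.285. With the 6 CA arrays alone, so that the AA arrays did not enter the spread, the change was 1.02 (limma adjusted p = 0.396). Among the arrays rich in gut and male transcripts, *Stip1* was 5.37 at CA2 against 6.17 and 6.28 at CA14 and CA22, and among the others it was 4.90 and 5.30 against 6.17 at CA18. With the body-marker score as a covariate the change was 0.96 (limma adjusted p = 0.114), and with the *eIF-4a* difference it was 1.04 (limma adjusted p = 0.0321).

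*DnaJ-1*, the main inducible Hsp40, which delivers clients to Hsp70, came next. It read 6.16, 6.14 and 6.43 in the cryophase and 7.08, 7.17 and 6.88 in the thermophase. The phases were clearly apart, but the change of 0.80 (SE 0.13, 1.74-fold) did not pass (limma adjusted p = 0.223). On the AA day the change was 0.00 (SE 0.13), and all 9 arrays at 25 °C, from 6.54 upward, exceeded the 3 at 18 °C. The other co-chaperones were mixed. *mora*, the CHORD protein that works with Hsp90, stood at 0.23 (SE 0.10) with phases apart, while *Droj2*, a further Hsp40, stood at 0.24 (SE 0.12) with phases that overlapped, and the heat shock factor gene *Hsf*, also in the list, stood at -0.14 (SE 0.16). Of 18 co-chaperones 9 were higher and 9 lower, with a median change of 0.00.

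Among the Hsp70, Hsp90 and Hsp60 chaperones, 6 of 8 tested had positive changes (median 0.17). *Hsp110*, an Hsp70 relative that exchanges its nucleotide, read 3.71, 3.71 and 3.78 against 3.98, 4.03 and 4.14. *Hsc70-5*, the mitochondrial Hsp70, read 4.75, 4.90 and 5.11 against 5.17, 5.28 and 5.63. Both had phases apart, with changes of 0.31 (SE 0.12) and 0.44 (SE 0.18). *Hsp60A*, the mitochondrial chaperonin, was uneven within the thermophase, at 8.04, 8.45 and 7.67 against 7.69, 7.67 and 7.59, and its change of 0.40 (SE 0.21) was 0.23 with the *eIF-4a* difference as a covariate. The cytosolic *Hsc70-4* stood at -0.06.

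The cytosolic chaperonin CCT, the ring that folds actin and tubulin, showed a split between its own subunits and prefoldin, the complex that hands it clients. All 7 CCT subunits tested had positive changes (0.05 to 0.41), while the 6 prefoldin subunits lay between -0.07 and 0.02, a division made after the values were seen. *CCT2* read 7.21, 7.11 and 7.46 against 7.71, 7.54 and 7.75, and its second probe set had a like change (0.47, SE 0.18, against 0.41, SE 0.11). *CCT8* was the tightest in the thermophase, at 5.64, 5.65 and 5.63 against 5.47, 5.34 and 5.29 (change 0.27, SE 0.091). *CCT5* stood at 0.31 (SE 0.11), and on the AA day at -0.12. *CCT4*, named after its values were seen, was 6.34, 6.31 and 6.34 at 18 °C and 6.36 or more in all 9 arrays at 25 °C.

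Folding genes of the endoplasmic reticulum had a median of 0.20, with 9 of 14 positive and 5 (35.7%) with phases apart upward, against 4.33% of all probe sets. The median was 0.12 without CA22. *CaBP1*, a protein disulfide isomerase, read 5.18, 4.83 and 4.90 against 5.35, 5.59 and 5.39. *Gp93*, the Hsp90 of this compartment, read 7.41, 6.997 and 7.57 against 7.67, 7.83 and 7.77. *Sil1*, which exchanges the nucleotide of its Hsp70, read 3.17, 3.14 and 3.22 against 3.66, 3.35 and 3.75. The changes were 0.47 (SE 0.12), 0.43 (SE 0.13) and 0.41 (SE 0.15), none past adjustment. *Hsc70-3*, the Hsp70 known as BiP, was smaller in change (0.19, SE 0.080), but its 3 arrays at 18 °C were all below the 9 at 25 °C. A second probe set of it gave 0.08 (SE 0.17). This list also had a positive median on the AA day (0.12), unlike the other folding lists, whose AA medians lay between -0.02 and 0.01.

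**Figure D2:**
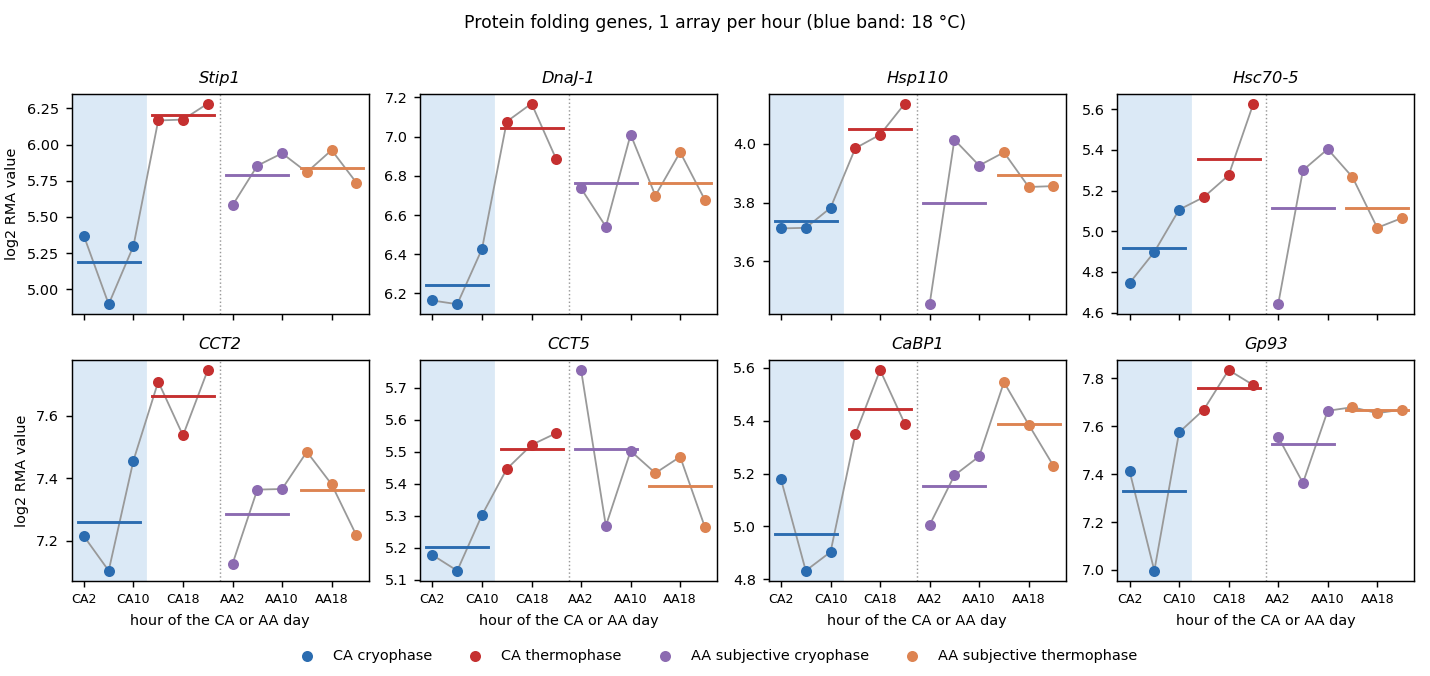
Log2 value (y axis) of 8 protein folding genes on each array, by hour of the CA and then the AA day (x axis). Points are single arrays, horizontal bars the means of 3, and the blue band the 18 °C phase. For *Stip1* and *DnaJ-1* the 3 arrays at 18 °C lie below all others.

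The small heat shock proteins did not share this direction. These holdases, among the most heat-inducible proteins of the fly, were split 3 and 3 with a median of -0.08. *CG7409* read 7.38, 7.42 and 7.55 against 7.26, 6.91 and 7.37, with a change of -0.27 (SE 0.16), and *Hsp26* stood at 0.06 (SE 0.11). Over the 5 folding lists together, 36 of 59 genes were higher (median 0.06, against 50.2% of all probe sets and a median of 0.00), 14 (23.7%) had every thermophase array above every cryophase array against 4.33% of all probe sets, and 1 (1.69%) the reverse against 4.61%. At an unadjusted p under 0.05, 12 of the 59 were higher and 0 lower, against 1.5% and 2.37% of all probe sets. Between 7 and 12 were higher with 1 CA array left out, the lowest count without CA6. On the lower side, 1 co-chaperone was counted without CA2 and 1 small heat shock protein without CA22. Members such as *DnaJ-1*, *Stip1*, *CCT5*, *Hsp110*, *mora* and *CaBP1* are named in the study from data that include these arrays, so the counts are not independent evidence.

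Outside the folding lists, the leading higher genes were small in size but orderly. *MsrA*, the methionine sulfoxide reductase that repairs oxidized methionine, read 6.12, 6.04 and 5.95 against 6.50, 6.30 and 6.67 (change 0.45, SE 0.099). *mbf1*, a transcriptional co-activator, read 5.93, 5.80 and 5.86 against 6.24, 6.33 and 6.34 (change 0.44, SE 0.11). *Akap200*, an anchoring protein for protein kinase A, read 7.90, 7.82 and 7.96 against 8.24, 8.20 and 8.45. The last of these was also below all 9 arrays at 25 °C in the cold. So was *Septin1*, a GTP-binding filament protein, at 4.68, 4.68 and 4.75 against 5.05, 5.18 and 4.97, although its AA change was -0.13. The remaining names among the 14 of smallest p whose phases did not overlap, *Alp10*, *CG9568*, *CG3483*, *Jhbp7*, *CG3868* and *CG15126*, lay between 0.31 and 0.37, and a second probe set of *CG15126* gave 0.16.

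Many of these 14 shared their extreme arrays. The highest of the 6 CA arrays was CA22 for 8, CA18 for 5 and CA14 for 1, and the lowest was CA6 for 10. With 1 array for each hour, hour and array cannot be told apart. CA22 also had the highest *eIF-4a* difference (3.23) and the highest gut deviation (0.81) of the 6. The part of either in these values was not tested beyond the covariates. All 14 changes were larger in CA than in AA, where they ranged from -0.13 to 0.24 and 11 had the same sign. For 6 of the 14, the 3 arrays at 18 °C lay below all 9 at 25 °C, as for 0.898% of all probe sets, and 7 had an unadjusted p under 0.05 for the difference between the days. As these genes were picked by their CA change, which largely fixes such counts, they are a description.

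Within the 14 genes a direction of smallest p with phases apart, the changes were larger among those higher in the cold (median -0.61 against 0.39). Over all probe sets 18 were higher by more than 1 at 25 °C and 3 lower, of which 2 and 3 had phases apart. *CG13315*, a gene with no assigned role, read 10.14, 10.69 and 10.86 at 18 °C and 9.39, 8.75 and 9.48 at 25 °C. Its mean was 2.56-fold higher in the cryophase (change -1.36, SE 0.26, limma adjusted p = 0.514). On the AA day it lay between 8.90 and 9.95, below every cryophase array, and its AA change was 0.24. The difference between the days was -1.60 (SE 0.36, limma adjusted p = 0.997). *Cpr72Ec*, a cuticle protein of the chitin-binding family, read 10.07, 10.30 and 10.26 against 9.07, 8.09 and 9.20 (change -1.42, SE 0.29, 2.68-fold higher in the cold, limma adjusted p = 0.753). It kept part of this difference at constant temperature, where the AA change was -0.68.

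Lipid and transport genes followed. *mdy*, the diacylglycerol acyltransferase that makes triglyceride, read 5.61, 6.54 and 6.55 against 5.44, 5.11 and 5.33. *Acsx3*, an acyl-CoA synthetase, which activates fatty acids, read 5.53, 6.13 and 5.52 against 4.83, 4.39 and 5.12. The means were 1.92-fold and 1.93-fold higher in the cold, with changes of -0.94 (SE 0.24) and -0.95 (SE 0.23). *mdy* at CA2, 2 h into the cold, was within the range of the AA day (5.17 to 5.85), and the later cryophase arrays were above it. *CG15096*, a putative membrane transporter, read 9.87, 10.21 and 9.995 against 9.36, 9.04 and 9.51, and its AA change was 0.03. *Gk2*, a glycerol kinase, read 3.96, 3.96 and 3.90 against 3.43, 3.39 and 3.62, with every array at 25 °C below those at 18 °C.

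The other leading lower genes covered several functions. *rost*, named for its part in muscle formation, was highest at CA6 (7.04) and read 6.09 and 6.53 at the other cold hours against 5.58 to 5.77 in the thermophase. *sr*, an Egr-type transcription factor of tendon cells, read 4.21, 4.49 and 4.43 against 4.03, 3.75 and 3.98. *Obp99b*, an odorant-binding protein, read 7.23, 7.26 and 7.52 against 6.88, 6.68 and 6.91. Its AA change had the other sign (0.20), and the difference between the days was -0.71 (SE 0.19, limma adjusted p = 0.997). *CG17108* was unlike these, since its AA change (-0.54) was close to its CA change (-0.62). *CG11275*, *CG34376* and *Mid1* stood at -0.61, -0.46 and -0.38, but 2 further probe sets of *CG34376* gave 0.10 and -0.03, and 2 of *Mid1* gave -0.15 and -0.07.

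**Figure D3:**
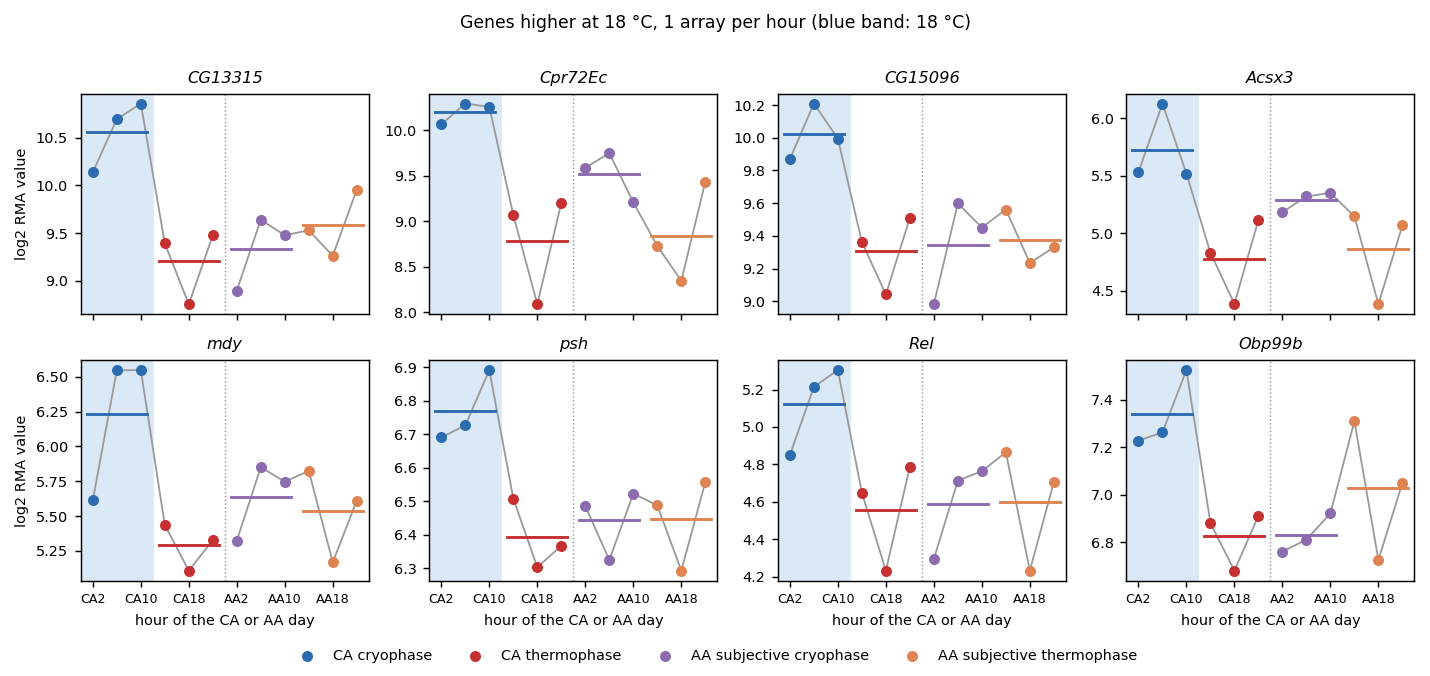
Log2 value (y axis) of 8 genes with higher values at 18 °C, by hour of the CA and then the AA day (x axis). Points are single arrays, bars the means of 3 and the blue band the 18 °C phase. In each panel all 3 cryophase arrays lie above all 3 thermophase arrays, and CA18 is the lowest CA array.

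These genes shared their extremes within the day. Of the 14 lower genes, 10 were highest at CA6 and 4 at CA10, and 12 were lowest at CA18. All 14 changes were larger in CA than in AA, 9 had 18 °C arrays above all 9 at 25 °C (0.943% of all probe sets did), and 10 had an unadjusted p under 0.05 for the difference between the days. These genes too were picked by their CA change, which largely fixes such counts, so nothing is read from them. CA18 was also the array with the lowest *eIF-4a* difference of the 6 (1.55) and the lowest mean deviation of fat body genes (-0.23). The part of either in these values was not tested beyond the covariate, with which *CG13315* stood at -1.19. Without CA18 it stood at -1.13.

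In the clock, the means of *tim* and *vri* were higher in the warm phase and that of *Clk* in the cold, none past adjustment. *tim*, whose protein pairs with PER, read 6.57, 6.07 and 5.90 against 6.52, 6.91 and 7.05. It lay lowest at the end of the cold phase and highest at the end of the warm one, and only CA2 overlapped with the thermophase. The change was 0.65 (SE 0.18, limma adjusted p = 0.995), and a second probe set gave 0.61 (SE 0.33). *vri*, a repressor of *Clk*, had its highest value 2 h into the warm phase, at 6.88, 6.76 and 7.28 against 7.51, 7.28 and 7.28 (change 0.38, SE 0.13). *Clk* read 4.63, 5.04 and 5.40 against 4.33, 4.10 and 4.75, a change of -0.63 (SE 0.27) with phases that overlapped at CA2 and CA22. On the AA day these changes were 0.12, 0.09 and -0.30, and no difference between the days had an unadjusted limma p under 0.05 (0.0565, 0.141 and 0.403).

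The other clock genes differed by less. *per*, the partner of *tim*, read 5.85, 6.39 and 6.04 against 6.22, 6.005 and 5.42, so its change of -0.21 (SE 0.19) came from CA22 and was 0.02 without that array. *cry*, the blue-light photoreceptor, read 7.10, 7.13 and 7.30 against 7.49, 7.31 and 7.03, with a change of 0.10 (SE 0.14) that was -0.01 without CA14. *Pdp1*, *cyc* and *dco*, an activator of *Clk*, its partner and a kinase of PER, stood at -0.13, -0.11 and -0.24. *Pdf*, the neuropeptide of the clock neurons, read 6.61, 6.58 and 6.64 against 6.43, 6.32 and 6.51 (change -0.19, SE 0.080). Of 13 clock genes tested, 4 were higher and 9 lower (median -0.15, and -0.08 without CA18). The phases were apart upward for 1 (7.69%) and downward for 3 (23.1%), against 4.33% and 4.61% of all probe sets.

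**Figure D4:**
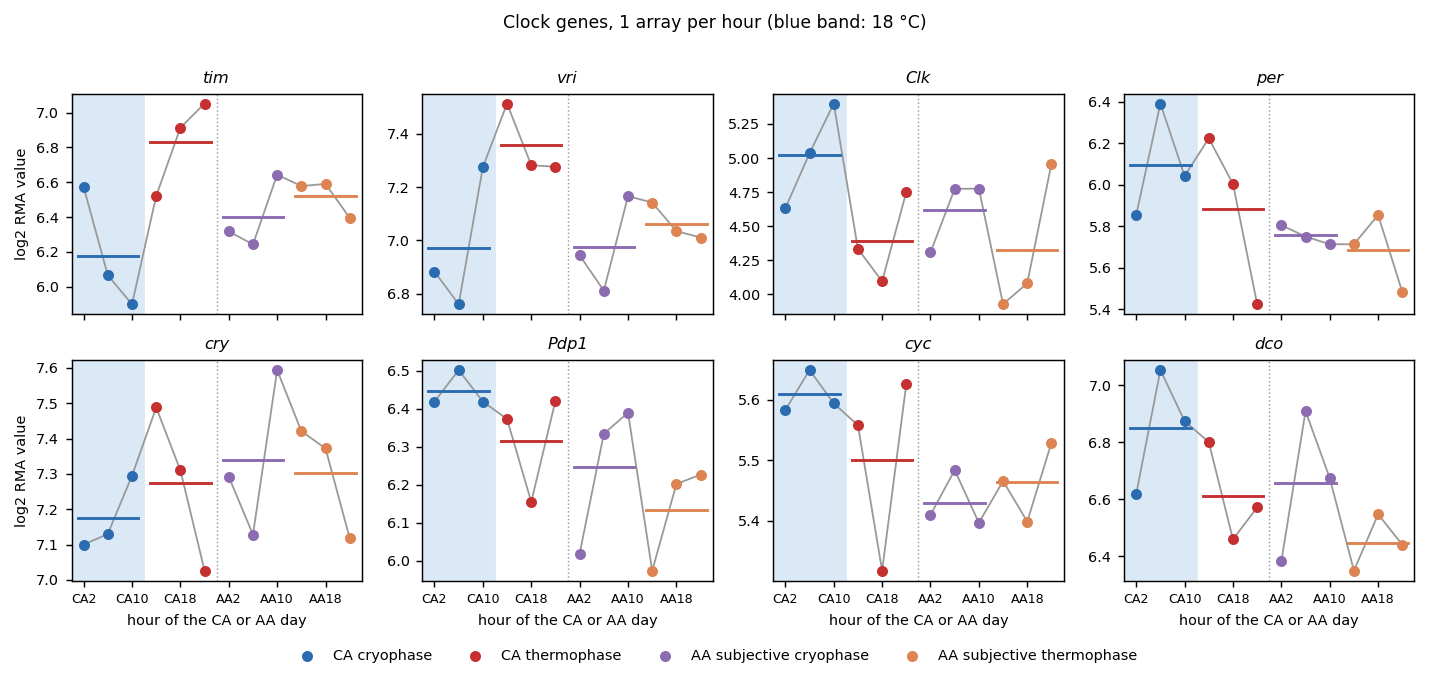
Log2 value (y axis) of 8 clock genes by hour of the CA and then the AA day (x axis). Points are single arrays, bars the means of 3 and the blue band the 18 °C phase. *tim* runs from 5.90 at CA10 to 7.05 at CA22, and of the 8 genes only *vri* has phases that do not overlap, with CA10 and CA22 nearly equal.

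In the Toll and Imd immune pathways, 10 of 15 signalling genes tested were lower in the warm phase and 5 higher (median -0.11), and none passed adjustment. For 4 (26.7%) every thermophase array lay below every cryophase array, against 4.61% of all probe sets. The median was -0.17 without CA2, -0.04 without CA18 and -0.01 without CA10, with 8 of 15 lower in the last case, and the 4 genes lower at an unadjusted p under 0.05 were 1 without CA18. *Rel*, the NF-kappaB factor of the Imd pathway, read 4.85, 5.21 and 5.30 against 4.65, 4.23 and 4.79 (change -0.57, SE 0.19). *psh*, a serine protease that senses fungal and bacterial proteases upstream of Toll, read 6.69, 6.73 and 6.89 against 6.51, 6.30 and 6.37 (change -0.38, SE 0.097). Both were near 0 on the AA day (0.01 and 0.00). *cact*, the inhibitor of the Toll factors, and *Vago*, an antiviral factor, both kept in this list, stood at -0.30 (SE 0.10) and -0.60 (SE 0.22), and for *psh*, *cact* and *Vago* all cold arrays exceeded the 9 warm ones. The antimicrobial peptides, the output of these pathways, had 0 of 17 with phases apart in either direction and a median of -0.02. As 8.93% of all probe sets had phases apart, a count of 0 among 17 is near that share. *Mtk*, an antifungal peptide, read 8.87, 8.502 and 8.64 against 8.80, 8.58 and 9.96, and was thus high at CA22 alone. The study names *Rel* and *psh* partly from these arrays.

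Lipid genes went both ways. Of 18 tested 9 were higher and 9 lower (median 0.02). Beside *mdy*, *ACC*, the first enzyme of fatty acid synthesis, stood at -0.44 (SE 0.16), with -0.03 for its second probe set, and the triglyceride lipase *bmm* at -0.26 (SE 0.11). *Lsd-1*, the perilipin that coats lipid droplets, read 7.62, 7.06 and 7.04 against 7.63, 7.70 and 8.10 (change 0.57, SE 0.19). None passed adjustment.

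Glycolytic enzymes were higher in 8 of 9 cases (median 0.20), where 50.2% of all probe sets were. The median depended on single arrays: it was 0.08 with 6 of 9 higher without CA14, 0.34 without CA22, and 0.05 with 6 of 9 higher without the arrays 2 h after each step. In *Pgk* and *Gapdh1* the hours of the warm phase differed more than the phases did. *Pgk* read 7.05, 7.23 and 7.36 in the cold and 8.26, 8.09 and 7.07 in the warmth, and *Gapdh1* 10.31, 10.38 and 10.42 against 11.08, 10.75 and 10.15. CA14 and CA18 were high in both genes and CA22 was at or below the cold level. The *eIF-4a* difference ran the opposite way. It was 1.85 and 1.55 at CA14 and CA18 and 3.23 at CA22, against 2.44 to 2.74 at 18 °C. With that difference as a covariate, the change of *Pgk* was 0.24 instead of 0.59 (SE 0.40). *eEF1alpha2*, an elongation factor, was also high at CA14 and CA18, with CA22 within the cold range. It read 5.75, 6.16 and 6.16 against 7.60, 7.88 and 6.01. *Pgi*, which makes fructose-6-phosphate, was the 1 member of 9 (11.1%) with phases apart, against 4.33% of all probe sets upward. It read 8.80, 8.83 and 9.06 against 9.57, 9.11 and 9.15.

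Of the mitochondrial ribosomal proteins, 47 of 63 were lower at 25 °C (median -0.08), and 8 (12.7%) had every thermophase array below every cryophase array, against 4.61% of all probe sets. The median was -0.05 without CA2 or CA14, -0.14 without CA22 and -0.03 (37 of 63 lower) without the arrays 2 h after each step. *mRpL42* read 6.53, 6.52 and 6.52 against 6.22, 6.21 and 6.41 (change -0.25, SE 0.097), and *mRpS28* stood at -0.28 (SE 0.11). Odorant-binding proteins, small carriers of odorants in the sensilla, were lower in 17 of 26 cases (median -0.10), with 4 (15.4%) apart downward against 4.61% of all probe sets. The median was -0.06 without CA2, -0.04 without CA18 and -0.03 without CA14. *Obp56a* read 6.09, 6.03 and 6.13 against 5.59, 5.22 and 6.02, and its AA change was 0.35. Of the takeout family, carriers of small lipophilic molecules, *Jhbp3* read 9.23, 9.44 and 9.46 against 8.64, 8.44 and 9.29, and 8 of 15 were lower.

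Other lists had medians closer to 0. Cytochrome P450 genes had 4 of 68 (5.88%) with phases apart upward and 5 (7.35%) downward, near the 4.33% and 4.61% of all probe sets (median -0.04). *Cyp6a21* read 3.93, 4.48 and 4.65 against 3.60, 2.94 and 3.87, and *Cyp6a8* 6.30, 6.70 and 6.91 against 6.14, 5.85 and 6.19, both P450 enzymes of the family that handles foreign compounds. Cuticle proteins had 1 of 89 (1.12%) upward and 4 (4.49%) downward, and chemoreceptors 2 (2.99%) and 3 (4.48%) of 67, none above those shares. Ion channels of the TRP family and thermoreceptors, through which flies sense temperature, ranged from -0.13 to 0.25 over 15 genes, with *wtrw*, a TRP channel for humidity sensing, the most positive (0.25, SE 0.11, and 0.06 for its second probe set). *Fst*, a gene induced in recovery from cold and named outside the selection rule, read 4.05, 3.53 and 3.77 against 3.77, 3.66 and 3.65.

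**Figure D5:**
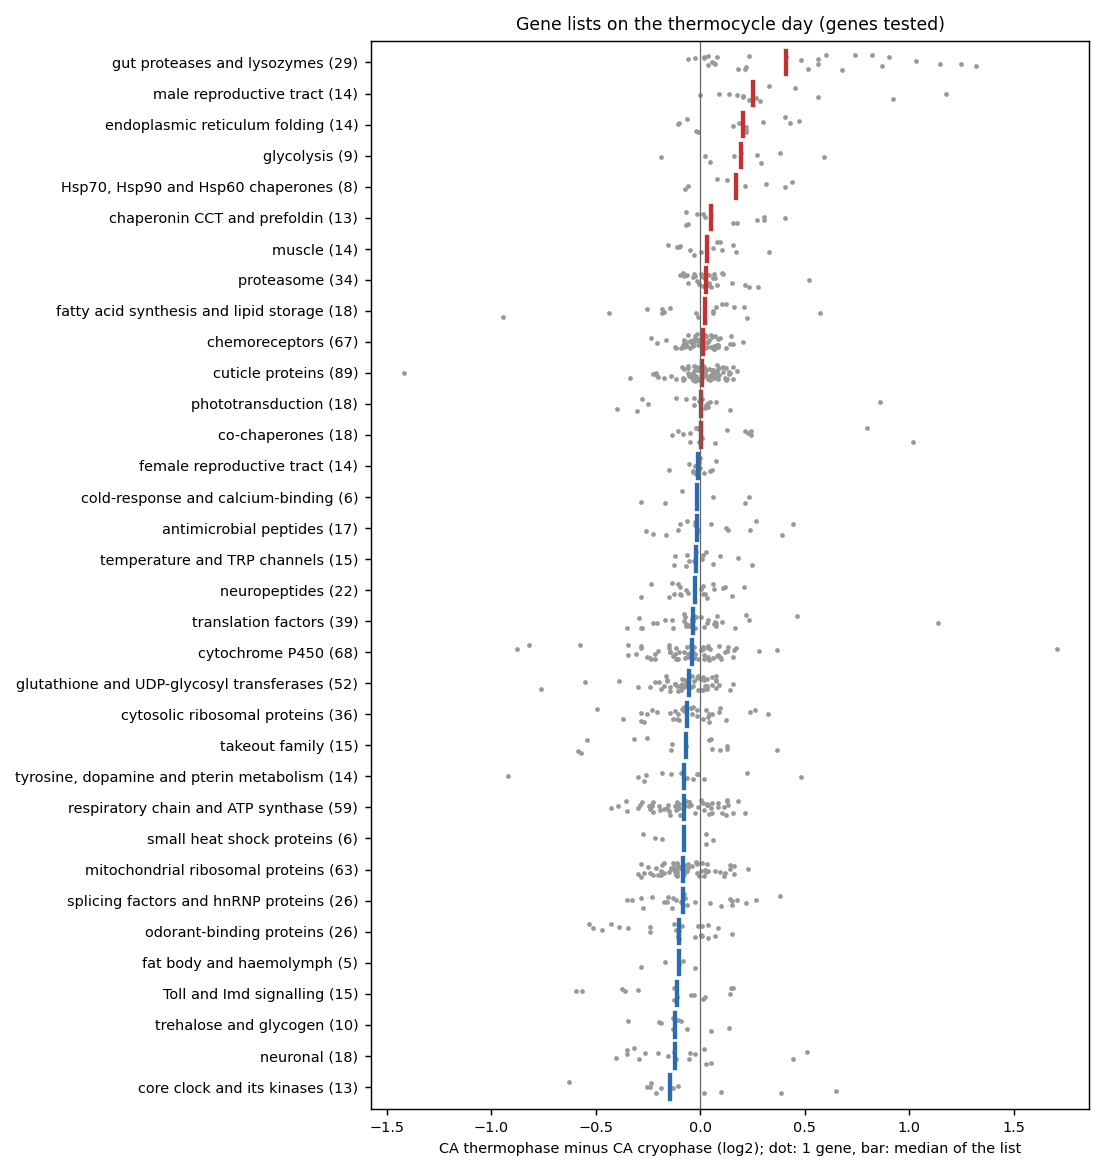
Change from the cryophase to the thermophase (x axis, log2) for each tested gene (dots) of 34 lists, with the list's median as a bar and the number of genes in parentheses. The gut and male lists have the highest medians (0.41 and 0.25), endoplasmic reticulum folding and glycolysis stand at 0.20, and most lists lie within 0.1 of 0.

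The gut and male lists mark tissue outside the head. Of 29 gut genes 27 were higher (median 0.41) and of 14 male genes 13 (median 0.25). The phases were apart upward for 2 (6.9%) and 0 (0.0%), against 4.33% of all probe sets, and CA2 was as rich in these transcripts as CA14. With 1 CA array left out the medians ranged from 0.14 to 0.66 and from 0.12 to 0.40. On the AA day they were 0.25 and 0.31. The female tract list had a median of -0.01. Neuronal genes had 13 of 18 lower (median -0.12, but -0.08 without CA22 and -0.02 without CA6), and muscle genes had a median of 0.03.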

How the data were processed

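Heads were separated by sieving frozen flies, and labelled RNA was hybridised to Affymetrix Drosophila Genome 1 arrays. The authors deposited log2 values from RMA (background correction, quantile normalization and probe summary) run within the experiment; the version and log base are not given in the sources used here, and the range of the values is that of log2. Of 14010 probe sets, 44 controls were left out. A single gene symbol belonged to 12443 probe sets, several to 327 and none to 1196, and 12394 of the single ones matched the RefSeq gene table, used for names only.

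The 12 arrays were fitted in 1 limma model (limma 3.58.1, R 4.3.3) with the means of 4 groups, 8 residual and 4.24 prior degrees of freedom. Tests were two-sided with Benjamini-Hochberg adjustment over 11137 probe sets. Precision is limited by the number of arrays (median SE of a CA change 0.11). The sources do not say whether hours were separate cultures. Array pairs correlated with r of 0.960 to 0.993.

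Named genes were those past adjustment, the 14 higher and 14 lower of smallest p with phases apart, 8 clock genes and up to 4 of smallest p in each of 34 lists, where the probe set of highest mean stood for a gene. *CCT4*, *Hsf*, *Hsc70-4*, *Fst* and *Cyp4g1* are outside this rule and were chosen after their values were seen. The members and lists were chosen with earlier results of these data known. The method was tested on simulated data with independent noise for each value. Differences that many probe sets of an array share were not simulated. A planned search of promoters for motifs was not run. Alternatives covered the arrays, filter, normalization, variance model, covariates and the hour as a block. Tables were made with pandas 2.3.3 and numpy 2.4.6 in Python 3.11.15, figures with matplotlib 3.10.9.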

Additional observations from a re-analysis of the deposited data

How the results depend on the processing

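Across 17 alternative settings, 62 of 94 named genes kept their direction and their side of the threshold in every one. Only *Stip1* had passed in the main fit, so any other gene could change side only by passing. Array weights alone moved 27 of the 94 past the threshold. The count of 1 probe set past adjustment was 0 with any 1 CA array left out, with the 6 CA arrays alone, with the hours since phase onset as a block, without the arrays 2 h after each step and with the body-marker score as a covariate, and 82 with array weights, which gave CA14 a weight of 6.12 against 0.42 to 1.69 for the other arrays. Those weights also gave 992 higher and 1140 lower probe sets at an unadjusted p under 0.05. The 167 higher probe sets ranged from 110 to 356 with 1 CA array left out and were 251 with the block, 484 with the body-marker score and 323 with the *eIF-4a* difference. The 264 lower ones ranged from 154 (without CA18) to 424 (without CA22). The cause of these shifts was not tested.

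Without the arrays 2 h after each step, the median changes were 0.28 for the Hsp70, Hsp90 and Hsp60 chaperones, 0.074 for co-chaperones, 0.035 for small heat shock proteins, 0.15 for chaperonin and prefoldin, 0.12 for the 5 folding lists together, -0.10 for lipid genes and -0.008 for odorant-binding proteins. With 1 CA array left out, the medians ranged from 0.15 to 0.25, from -0.005 to 0.096, from -0.158 to 0.001, from 0.068 to 0.136 and from 0.064 to 0.111 for the first 5 of these, and from 0.12 to 0.22 for endoplasmic reticulum folding. Array weights gave 0.11 for co-chaperones, 0.14 for endoplasmic reticulum folding and 0.10 for the 5 lists together. The *eIF-4a* difference as a covariate gave 0.082 for co-chaperones and 0.12 for chaperonin and prefoldin. The body-marker score gave -0.18 for small heat shock proteins, and the stricter filter gave 0.21 for the Hsp70, Hsp90 and Hsp60 chaperones.

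Signs turned for 4 genes, none of which had passed the test. With 1 CA array left out, *per* ranged from -0.38 to 0.018 (without CA22), *cry* from -0.007 (without CA14) to 0.22 and *Fst* from -0.21 to 0.046 (without CA2). Without the arrays 2 h after each step, *cry* stood at -0.044 and *Fst* at 0.01, with array weights *Fst* at 0.047, and with the body-marker score *Cyp4g1* at -0.47. The labels number no replicates. The block above pairs CA2 with CA14, CA6 with CA18 and CA10 with CA22 by hours since phase onset.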

Other observations

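Genes of amine and aromatic amino acid metabolism held some of the larger changes outside the lists described above. *speck*, the N-acetyltransferase that acts on dopamine and related amines, read 5.59, 5.60 and 5.62 in the CA cryophase and between 5.94 and 6.31 in the thermophase (change 0.48, SE 0.16, limma adjusted p = 0.995), and its AA change was 0.08. *Hpd*, an enzyme of tyrosine breakdown, read 7.25, 8.03 and 8.43 against 7.21, 6.37 and 7.35 (change -0.92, SE 0.39), lowest at CA18. *ple*, tyrosine hydroxylase, stood at -0.27 on the CA day and -0.25 on the AA day. Of 14 such genes tested, 11 were lower (median -0.08), where 49.8% of all probe sets were. The count was 8 without CA10 and 9 without CA6 or without CA22. The phases were apart upward for 1 (7.14%) and downward for 0 (0.0%), against 4.33% and 4.61% of all probe sets.

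In the eye and brain lists, *nAChRbeta2*, a nicotinic receptor subunit, read 4.53, 5.04 and 5.35 against 4.56, 4.60 and 4.54, and *Galphaq*, the G protein of phototransduction, read 3.47, 3.95 and 3.84 against 3.42, 3.23 and 3.40. *Gad1*, which makes GABA, ran the other way at 5.67, 5.81 and 5.70 against 6.17, 6.58 and 5.76. *ATPsynB*, a subunit of the mitochondrial ATP synthase, had like changes on both days, -0.43 (SE 0.13) in CA and -0.39 in AA. None of these passed adjustment.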
